A study of Mus musculus with 6 samples.

Results

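The genes described here are the Wnt ligands, their receptors and the secreted and intracellular proteins that tune them, in neonatal mouse ovaries cultured with 3-methylcholanthrene (3MC). Members were taken from the authors' deposited comparison of 3MC with vehicle by gene symbol: Wnt, Fzd, Sfrp, Dkk or Rspo followed by a number, together with Frzb, Wif1, Lrp5, Lrp6, Ror1, Ror2, Axin2, Nkd1, Lgr6, Porcn and Ctnnb1. This gave 68 probe rows for 51 genes, of 25697 rows for 18138 gene symbols. Lgr4 was also sought by its symbol and had no row. The rule used gene symbols only. Of the 68 probes, 30 (26 genes) were brighter, on average over the 6 arrays, than the median probe and were tested, and 38 were dimmer and were not.

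Wnt proteins are lipid-modified secreted glycoproteins that bind Frizzled receptors at the surface of nearby cells. With the co-receptors LRP5 and LRP6 they keep β-catenin from being degraded, and β-catenin then acts with TCF/LEF factors on target genes. With ROR2 and other partners they act through routes that do not need β-catenin. R-spondins raise the amount of Frizzled at the surface, while SFRP, DKK and WIF proteins are secreted antagonists. In the mouse, WNT4 and RSPO1 are known for their part in the development of the ovary.

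The comparison rests on 6 arrays, 3 of ovaries in 5 µM 3MC and 3 of ovaries in vehicle (0.01% DMSO). 3MC is a polycyclic aromatic hydrocarbon and a ligand of the aryl hydrocarbon receptor (AhR), and per the labels its dose was chosen in pilot work to be overtly toxic. All ovaries came from Swiss mice at postnatal day 3-4 and were kept for 96 hours as whole organs on inserts, in medium with serum, basic fibroblast growth factor, leukemia inhibitory factor and stem cell factor. Nothing in the labels ties the 3 replicates of a treatment to separate animals or cultures. Each p-value therefore speaks only of these samples, whose spread may be technical. Each SE and p-value also rests mostly on a variance shared over all tested probes (30.8 prior against 4 residual degrees of freedom). Median scanner signals were 98.1 to 124.5 on the 3MC arrays and 107.8 to 109.1 on the DMSO arrays, and 3MC replicate 1 was the brightest. Values below are log2 signals after background correction and quantile normalization, and a difference is 3MC minus DMSO. All 14 oocyte marker genes on the array and 12 of 15 pregranulosa and granulosa marker genes were above the signal limit.

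Of the 30 tested Wnt pathway probes, 15 probes of 12 genes passed the test (limma, adjusted p under 0.05), against 32.2% of all 12848 probes tested. Of the 15 probes, 12 of 9 genes rose in 3MC ovaries, and 3 of 3 genes fell. Among all probes tested 15.8% rose and 16.4% fell. The genes that rose were the ligands Wnt4 and Wnt5a, the receptors Fzd1, Fzd2, Fzd7 and Ror2, the agonist Rspo3, and the antagonists Sfrp1 and Dkk3. Those that fell were Wnt6, Wnt10a and Fzd6, and without DMSO replicate 1 only 1 of these, Wnt6, passed. The 3 values of each group did not overlap at 21 of the 30 probes, all 15 that passed among them, against 42.4% of all probes tested. The median difference over the 30 probes was 0.18, against -0.0015 over all probes tested. Without the limit on signal all 68 probes were tested, and 13 passed, against 16.1% of all 25697 probes. Of the 9 probes that could be linked to their row by ratio alone all 9 passed, against 86.1% of all probes linked that way, since mostly rows far from a ratio of 1 can be. The signal limit was set on the mean over all 6 arrays, so these counts describe the probes that were bright enough to test.

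Most of these differences were small, and most of the calls depended on how the arrays were scaled. Of the 30 tested probes 2, the first Wnt5a probe and that of Fzd1, passed and reached 1.5-fold in the upward direction and 0 in the downward direction, against 2.81% and 2.54% of all probes tested. When each array was centred on its median in place of quantile normalization, 3 of the 30 probes passed, those of Wnt5a (first probe), Fzd1 and Wnt6. Of the 12 calls that were lost, the difference stayed near its size or grew for Rspo3, Wnt10a and Fzd6 and was smaller for the other 9 probes. Under that scaling 8.61% of all 12848 probes passed, and the median of all tested probes lay at -0.082. With 3MC replicate 1 left out as well, a setting chosen after seeing the data, the median of all tested probes lay at -0.20. There 3 of 29 Wnt pathway probes rose and 6 fell, while 44.1% of all 12848 probes passed, 568 rising and 5102 falling.

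**Figure D1:**
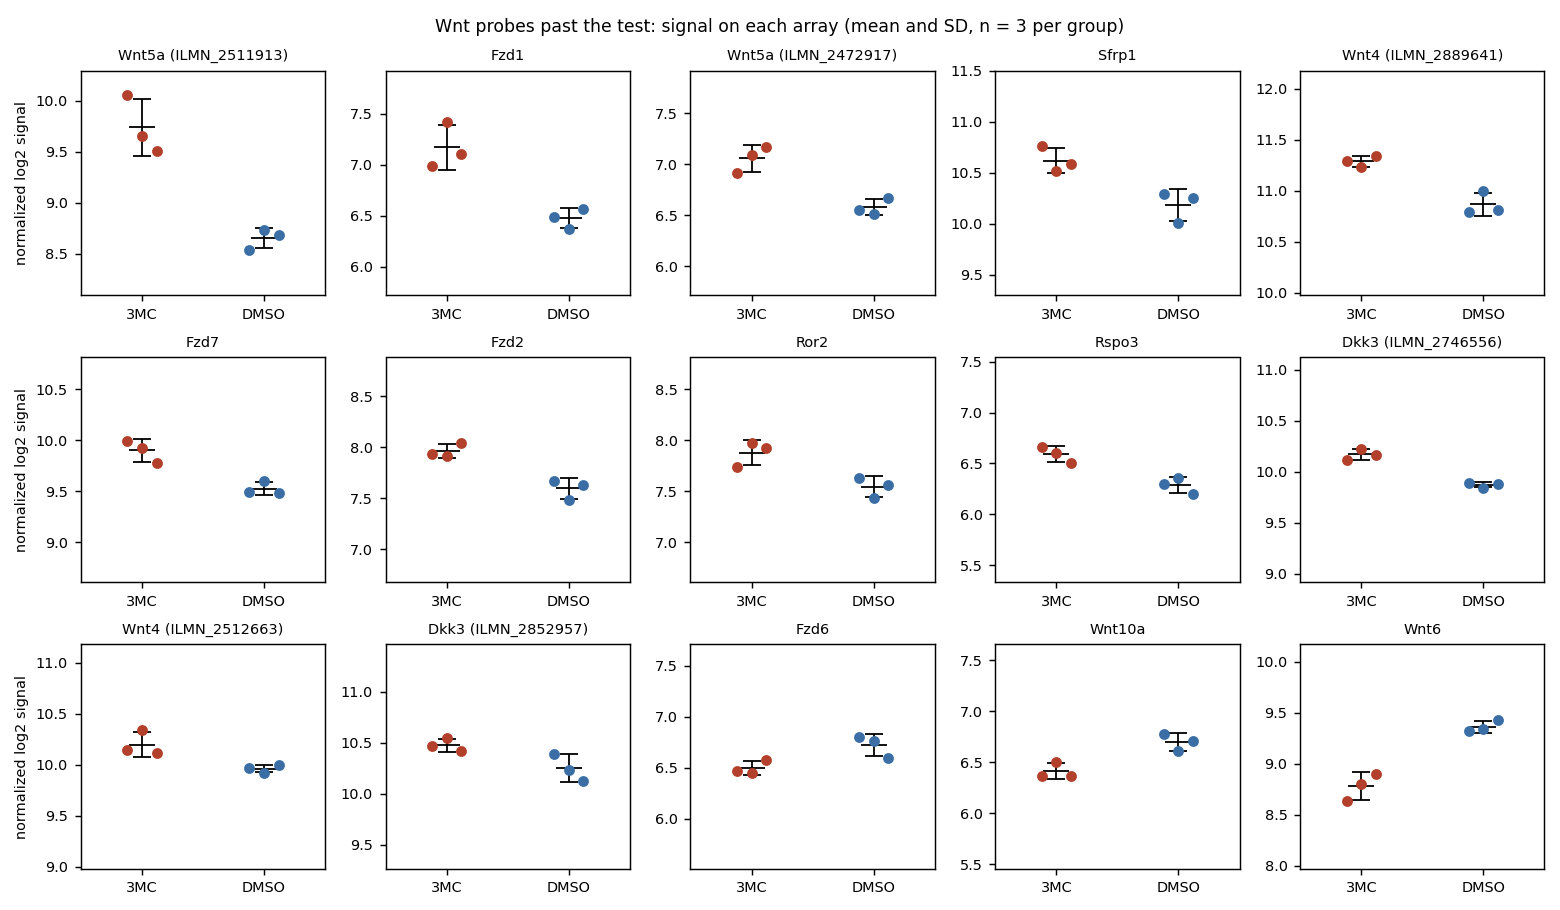
Log2 signal (vertical axis) on each of the 6 arrays for the 15 Wnt pathway probes that passed the test, with 3MC left of DMSO and bars for the mean and SD (n = 3 per group). In each of the 15 panels all 3MC values lie on one side of all DMSO values, narrowly for Fzd6 and the second Dkk3 probe.

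Wnt5a, a ligand best known for β-catenin-independent signalling through ROR2, showed the widest change among the Wnt ligands tested. It lies on chromosome 14 in the authors' deposited comparison, which also gives the chromosomes named for the other genes. Its first probe (ILMN_2511913) read 10.05, 9.66 and 9.51 in 3MC ovaries and 8.54, 8.73 and 8.69 in DMSO ovaries. Every 3MC value was above every DMSO value, and 3MC replicate 1 was the highest of the 6. The difference was 1.09 ± 0.10 (SE, n = 3 per group; limma adjusted p = 9.15e-11), or 2.12-fold. The second Wnt5a probe (ILMN_2472917) read 6.91, 7.09 and 7.17 in 3MC ovaries and 6.55, 6.51 and 6.67 in DMSO ovaries, again without overlap. It rose by 0.48 ± 0.089 (adjusted p = 6.23e-05), and with median centring it differed by 0.43 and missed the threshold (adjusted p = 0.0586).

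Wnt4, which is required for normal ovarian development in the mouse, had 2 tested probes (chromosome 4). The first read 11.29, 11.23 and 11.34 in 3MC ovaries and 10.79, 10.997 and 10.81 in DMSO ovaries. The groups did not overlap, and the difference was 0.42 ± 0.087 (SE; limma adjusted p = 0.000288). The second Wnt4 probe read 10.14, 10.34 and 10.11 in 3MC ovaries and 9.97, 9.92 and 9.999 in DMSO ovaries, also without overlap. It differed by 0.24 ± 0.087 (adjusted p = 0.0365), and it lost the call without 3MC replicate 2 (adjusted p = 0.200) and without any 1 of the DMSO replicates (adjusted p = 0.0621 to 0.104). With median centring the Wnt4 probes differed by 0.30 and 0.11 and neither passed (adjusted p = 0.251 and 0.755), and without 3MC replicate 1 as well the second read -0.02.

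Wnt6 and Wnt10a, ligands that signal through β-catenin and lie next to each other on mouse chromosome 1, both fell. Wnt6 read 8.63, 8.80 and 8.90 in 3MC ovaries and 9.32, 9.34 and 9.43 in DMSO ovaries. All 3 arrays of 3MC ovaries were below all 3 of DMSO ovaries. The difference was -0.58 ± 0.089 (SE; limma adjusted p = 2.74e-06), and it passed in every setting tried. Wnt10a read 6.37, 6.50 and 6.37 in 3MC ovaries and 6.78, 6.61 and 6.71 in DMSO ovaries. Its groups did not overlap either, but the gap was narrower, at -0.28 ± 0.087 (adjusted p = 0.0111). Without DMSO replicate 1, the highest of its 6 values, Wnt10a missed the threshold (adjusted p = 0.066). With median centring its difference was -0.30, without passing (adjusted p = 0.204).

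Wnt5b, a close relative of Wnt5a, read 6.84, 6.90 and 6.74 in 3MC ovaries and 6.69, 6.63 and 6.59 in DMSO ovaries and did not pass (adjusted p = 0.0843), although its groups did not overlap. The authors' deposited table gave Wnt5b a p-value of 0.0223. The other 14 ligand genes, Wnt1, Wnt2, Wnt2b, Wnt3, Wnt3a, Wnt7a, Wnt7b, Wnt8a, Wnt8b, Wnt9a, Wnt9b, Wnt10b, Wnt11 and Wnt16, had no probe above the signal limit of 6.28. Their 21 probes differed between -0.22 and 0.22. In the authors' deposited table, Wnt11 had a ratio of 0.915 (p-value 0.0306) and 1 Wnt9b row a ratio of 0.909 (p-value 0.0339), and these were the only 2 of the 21 with a p-value under 0.05. Porcn, the enzyme that attaches the lipid to Wnt proteins, differed by 0.19 ± 0.087 at its tested probe (adjusted p = 0.102) and did not pass.

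**Figure D2:**
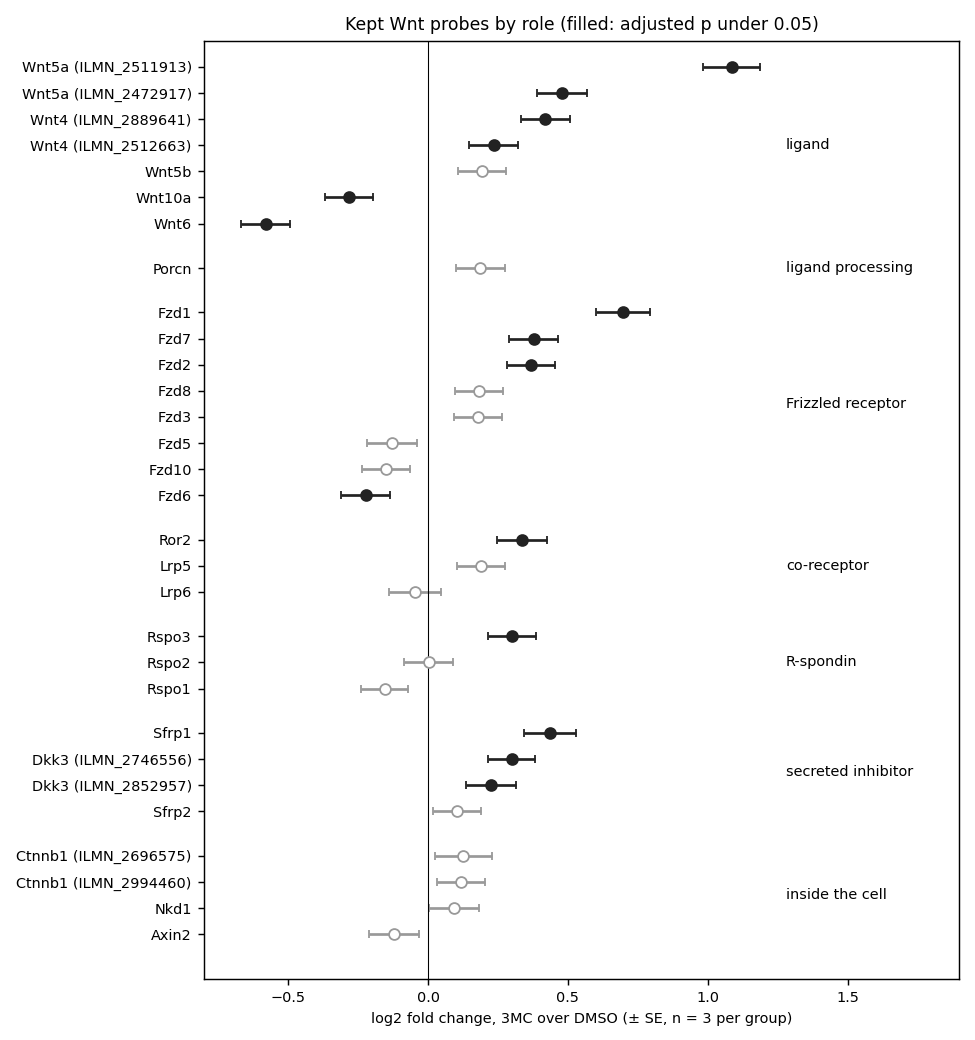
Difference in log2 signal, 3MC minus DMSO (horizontal axis), for the 30 tested Wnt pathway probes, grouped by role, with bars of 1 SE and filled points where the adjusted p is under 0.05. Wnt5a and Fzd1 lie farthest to the right and Wnt6 farthest to the left.

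Among the Frizzled receptors, Fzd1, Fzd2 and Fzd7 rose and Fzd6 fell, and 4 of the 8 tested did not pass. Fzd1 (chromosome 5) read 6.99, 7.42 and 7.10 in 3MC ovaries and 6.48, 6.37 and 6.57 in DMSO ovaries. Every 3MC value was above every DMSO value, and 3MC replicate 2 was the highest. Its difference was 0.70 ± 0.096 (SE; limma adjusted p = 4.55e-07), or 1.62-fold, and it passed in every setting in which it was tested. The DMSO values of Fzd1 lay close to the signal limit, and the size of its difference depended on the background correction. It was 0.55 without background correction and 0.52 with the authors' log2 values. The authors' deposited table gave Fzd1 a ratio of 1.43, short of 1.5-fold.

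Fzd7 (chromosome 1), one of several Frizzled receptors of the β-catenin route, read 9.99, 9.93 and 9.78 in 3MC ovaries and 9.49, 9.59 and 9.48 in DMSO ovaries. Fzd2 (chromosome 11) read 7.94, 7.92 and 8.04 in 3MC ovaries and 7.68, 7.48 and 7.64 in DMSO ovaries. Neither receptor's groups overlapped. The difference was 0.38 ± 0.087 for Fzd7 (SE; adjusted p = 0.00093) and 0.37 ± 0.087 for Fzd2 (adjusted p = 0.00117). With median centring Fzd7 differed by 0.25 and Fzd2 by 0.27, and neither passed (adjusted p = 0.438 and 0.327).

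Fzd6 (chromosome 15), a receptor with a known part in planar cell polarity, read 6.47, 6.45 and 6.57 in 3MC ovaries and 6.80, 6.76 and 6.60 in DMSO ovaries. All 3MC values were below all DMSO values, but DMSO replicate 3 came close to 3MC replicate 3. The difference of -0.22 ± 0.087 passed narrowly (SE; adjusted p = 0.048), and it lost the call in 10 settings, among them the omission of 3MC replicate 1, 3MC replicate 2, DMSO replicate 1 or DMSO replicate 2 (adjusted p = 0.119 to 0.185). With median centring it differed by -0.25 (adjusted p = 0.306). Fzd3 differed by 0.18 ± 0.085, Fzd8 by 0.18 ± 0.085, Fzd5 by -0.13 ± 0.089 and the tested Fzd10 probe by -0.15 ± 0.085 (adjusted p = 0.102 to 0.288). Fzd5 passed in the downward direction with median centring without 3MC replicate 1 (-0.42, adjusted p = 0.00146). In that setting 5102 of all 12848 probes tested fell. The authors' deposited table gave p-values of 0.0113 for Fzd3 and 0.00425 for Fzd8. Fzd4, whose loss is known to impair the corpus luteum in mice, had no probe above the signal limit.

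The sequences below are the 250 bases before the annotated start of the ligands and receptors that passed the test and are in the RefSeq promoter table, shown for the opposite pair Wnt4 and Wnt6 and for the receptors Fzd1 and Fzd7. They are on GRCm38.p6, 5′ to 3′ on the strand of the gene: chr4:137277385-137277634 (+) for Wnt4, chr1:74771642-74771891 (+) for Wnt6, chr5:4758217-4758466 (-) for Fzd1 and chr1:59481897-59482146 (+) for Fzd7. Capitals mark GCGTG, the core of the AhR response element, or the TCF/LEF core CTTTGNN, with A or T at both N, each on either strand.
Wnt4: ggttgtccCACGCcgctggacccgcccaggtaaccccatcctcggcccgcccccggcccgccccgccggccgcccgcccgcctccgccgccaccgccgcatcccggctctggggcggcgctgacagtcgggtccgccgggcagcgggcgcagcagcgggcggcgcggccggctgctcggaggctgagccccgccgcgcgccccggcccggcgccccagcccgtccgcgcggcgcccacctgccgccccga
Wnt6: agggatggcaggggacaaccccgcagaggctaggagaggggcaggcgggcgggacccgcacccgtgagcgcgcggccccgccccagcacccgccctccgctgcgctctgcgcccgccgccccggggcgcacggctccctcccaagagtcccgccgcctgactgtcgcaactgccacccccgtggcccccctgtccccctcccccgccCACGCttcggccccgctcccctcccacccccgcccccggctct
Fzd1: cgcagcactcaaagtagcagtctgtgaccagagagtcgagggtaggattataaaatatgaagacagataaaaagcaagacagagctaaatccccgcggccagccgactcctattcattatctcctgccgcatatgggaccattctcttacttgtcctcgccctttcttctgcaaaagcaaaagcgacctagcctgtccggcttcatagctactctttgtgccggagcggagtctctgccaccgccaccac
Fzd7: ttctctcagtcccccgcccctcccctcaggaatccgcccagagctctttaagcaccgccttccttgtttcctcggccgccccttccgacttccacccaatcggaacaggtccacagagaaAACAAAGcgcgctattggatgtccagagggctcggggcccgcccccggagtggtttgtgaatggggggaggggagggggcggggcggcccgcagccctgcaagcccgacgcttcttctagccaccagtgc

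The AhR core stood once in the Wnt4 sequence, starting 242 bases before the start, and once in the Wnt6 sequence, 43 bases before it. The Fzd7 sequence held 1 TCF/LEF core, and the Fzd1 sequence held neither. The sequence of Ror2, the other gene that passed and is in the promoter table, is not shown and held neither. Over all 32851 promoter windows of this length, 28.2% held GCGTG and 14.8% held a TCF/LEF core. The table held 38 promoters for 34 of the 51 genes, of which 19 held the AhR core and 4 a TCF/LEF core. G and C made up 85.2% of the Wnt4 window, 79.6% of Wnt6, 73.2% of Ror2, 65.2% of Fzd7 and 51.2% of Fzd1. The part of base composition in these counts was not tested. The motifs do not overlap, and a match is a string of letters and not a binding site. Wnt4, which rose, and Wnt6, which fell, both held the AhR core, and a link between motif and change was not tested.

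Of the co-receptors, Ror2 rose, and Lrp5 and Lrp6 did not pass. Ror2 (chromosome 13), the receptor tyrosine kinase that binds WNT5A, read 7.74, 7.97 and 7.92 in 3MC ovaries and 7.63, 7.43 and 7.56 in DMSO ovaries. Its groups did not overlap, and it differed by 0.34 ± 0.089 (SE; limma adjusted p = 0.00366), but with median centring it differed by 0.24 and missed the threshold (adjusted p = 0.368). Lrp5 and Lrp6, the partners of Frizzled in the β-catenin route, differed by 0.19 ± 0.087 (adjusted p = 0.0922) and -0.046 ± 0.093 (adjusted p = 0.749). With median centring without 3MC replicate 1, Lrp6 passed in the downward direction (-0.34, adjusted p = 0.0141). In that setting 5102 of all 12848 probes tested fell. Ror1 had no probe above the signal limit.

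Rspo3 (chromosome 10), an R-spondin that enhances Wnt signalling, read 6.66, 6.60 and 6.51 in 3MC ovaries and 6.30, 6.36 and 6.21 in DMSO ovaries. The groups did not overlap. It rose by 0.30 ± 0.086 (SE; limma adjusted p = 0.00696), and stood at an adjusted p of 0.0501 without DMSO replicate 3. With median centring its difference was again 0.30, with an adjusted p of 0.228. Rspo1, which acts with Wnt4 in the developing ovary, differed by -0.16 ± 0.086 (adjusted p = 0.168), and Rspo2 by 0.0023 ± 0.087 (adjusted p = 0.987). Rspo4 and the R-spondin receptor Lgr6 had no probe above the signal limit.

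Of the 10 secreted antagonist genes 3 were tested, and Sfrp1 and Dkk3 rose. Sfrp1, which binds Wnt proteins outside the cell, read 10.76, 10.52 and 10.58 in 3MC ovaries and 10.29, 10.01 and 10.26 in DMSO ovaries. All 3MC values were above all DMSO values. The difference was 0.44 ± 0.092 (SE; limma adjusted p = 0.000345), and with median centring it was 0.30 (adjusted p = 0.363).

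Dkk3, a member of the Dickkopf family whose part in Wnt signalling is less settled than that of Dkk1, had 2 tested probes (chromosome 7). The first read 10.12, 10.22 and 10.17 in 3MC ovaries and 9.88, 9.84 and 9.88 in DMSO ovaries, without overlap, and differed by 0.30 ± 0.084 (adjusted p = 0.00603). The second read 10.47, 10.54 and 10.42 in 3MC ovaries and 10.39, 10.23 and 10.13 in DMSO ovaries and differed by 0.23 ± 0.088 (adjusted p = 0.0485). It lost the call when any 1 of 3MC replicates 1, 2 and 3 or DMSO replicates 2 and 3 was left out (adjusted p = 0.0549 to 0.248). With median centring the probes differed by 0.18 and 0.095, and neither passed (adjusted p = 0.536 and 0.803). Sfrp2 differed by 0.10 ± 0.085 (adjusted p = 0.39). Dkk1, Dkk2, Dkk4, Frzb, Sfrp4, Sfrp5 and Wif1 had no probe above the signal limit, and the 8 dim antagonist probes, 1 of them another Dkk3 probe, differed between -0.16 and 0.12. For that Dkk3 row the authors' deposited table gave a p-value of 0.0303.

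None of the members that work inside the cell passed. Axin2, a scaffold of the β-catenin destruction complex and a target gene of the β-catenin route in many tissues, read 9.28, 9.06 and 9.05 in 3MC ovaries and 9.37, 9.23 and 9.15 in DMSO ovaries. The groups overlapped, and the difference was -0.12 ± 0.090 (SE; limma adjusted p = 0.321). With median centring and 3MC replicate 1 left out, Axin2 passed in the downward direction (-0.49, adjusted p = 0.000503). In that setting 5102 of all 12848 probes tested fell. The 2 tested probes of Ctnnb1, which encodes β-catenin, differed by 0.13 ± 0.10 and 0.12 ± 0.086 (adjusted p = 0.376 and 0.322), and their sign turned with median centring. Nkd1, an inhibitor that binds Dishevelled, differed by 0.093 ± 0.089 (adjusted p = 0.464).

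**Figure D3:**
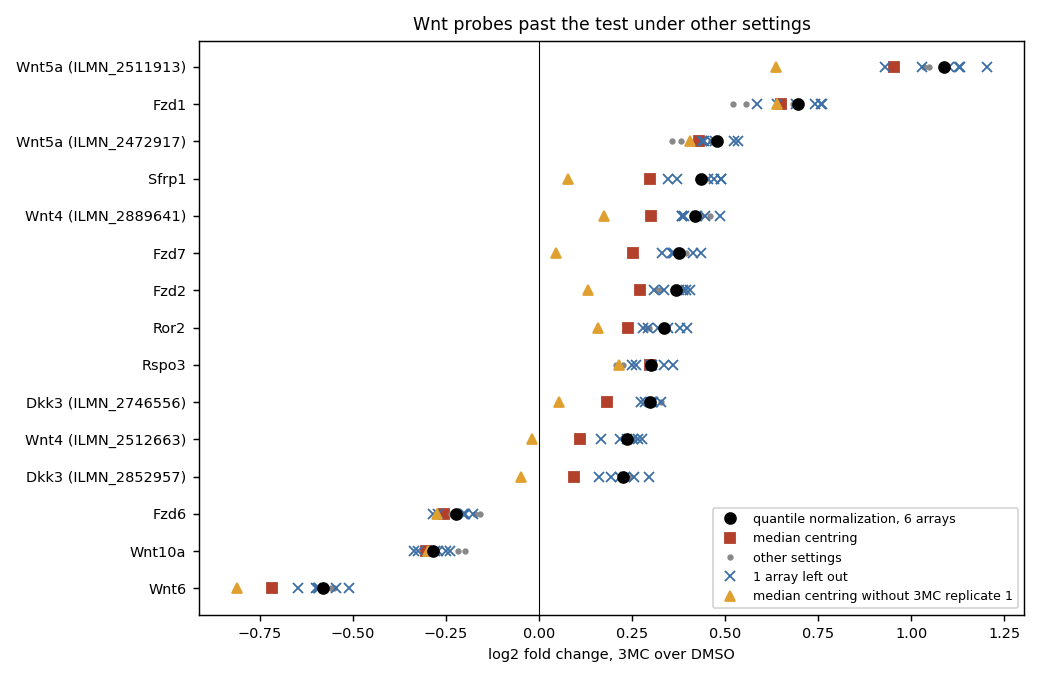
Difference in log2 signal, 3MC minus DMSO (horizontal axis), of the Wnt pathway probes that passed the test, under quantile normalization of the 6 arrays and under each other setting tried. The second probes of Wnt4 and Dkk3 reach below 0 with median centring without 3MC replicate 1, and the other 13 probes keep their sign in each setting drawn.

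Other components of the pathway, taken from listed genes outside the rule, are given here by list. Each listed gene stands for 1 probe, its tested probe of highest mean signal, while shares of all probes count every probe. Of all probes above the 75th percentile of signal 39.1% passed. Some genes, among them Ccnd1 with 3 tested probes and Ccn4 with 2, had other probes that are not given here. Of 31 tested genes for cytoplasmic and nuclear components, 5 rose and 1 fell, or 19.4%, against 32.2% of all probes tested. Dvl1, a Dishevelled protein that relays the Frizzled signal, differed by 0.38 ± 0.092 (SE; limma adjusted p = 0.00149). Nkd2, Btrc (an F-box protein that marks β-catenin for degradation), Tcf7l1 and Gsk3a rose by 0.26 to 0.30, and the co-repressor Tle4 fell by 0.28. Of 15 tested planar polarity and calcium-route genes, 1 (6.67%) passed, Prickle3, rising by 0.40 ± 0.087 (adjusted p = 0.000432). None of these 7 genes passed with median centring, although the difference was larger for Tle4 (-0.41) and about the same for Gsk3a (0.26). The others differed by 0.14 to 0.29. Btrc, Tcf7l1, Gsk3a and Tle4 also lost the call when 1 array was left out, each for at least 1 of 3MC replicates 1 and 2 and DMSO replicates 1 and 2 (adjusted p = 0.0536 to 0.184).

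Of 12 tested genes for other surface and secreted proteins of the pathway, 2 rose and 2 fell (33.3%). Lgr5, an R-spondin receptor and a marker of stem cells in several epithelia, read 6.67, 6.53 and 6.85 in 3MC ovaries and 7.87, 7.53 and 7.66 in DMSO ovaries. All 3MC values lay below all DMSO values by more than the spread in either group, with a difference of -1.01 ± 0.095 (SE; limma adjusted p = 1.16e-10), and Lgr5 passed in every setting in which it was tested. Igfbp4, a secreted protein that can also bind Frizzled and LRP6, differed by 0.58 ± 0.086 (adjusted p = 1.7e-06). Ptk7 rose by 0.31 and Serpinf1 fell by 0.24, and neither these nor Igfbp4 passed with median centring, where Ptk7 differed by 0.20, Serpinf1 by -0.38 and Igfbp4 by 0.37. Serpinf1 also lost the call with cyclic loess (adjusted p = 0.0656) and without 3MC replicate 1 or 2 or DMSO replicate 2 or 3 (adjusted p = 0.0821 to 0.138), and Ptk7 without 3MC replicate 3 (adjusted p = 0.0501).

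Of 22 tested genes listed as targets of the pathway, 8 rose and 5 fell (59.1%), against 15.8% of all probes tested that rose and 16.4% that fell. Ccn4 (Wisp1), a matricellular protein, read 9.91, 9.98 and 9.77 in 3MC ovaries and 8.46, 8.37 and 8.54 in DMSO ovaries, and differed by 1.43 ± 0.088 (SE; limma adjusted p = 1.89e-15). Sp5, a transcription factor induced by β-catenin in embryos, read 7.74, 7.70 and 7.77 in 3MC ovaries and 8.20, 8.29 and 8.34 in DMSO ovaries and fell, with a difference of -0.54 ± 0.085 (adjusted p = 5.55e-06). Neither gene's groups overlapped, and both passed in every setting tried. The adhesion receptor Cd44, the aromatase gene Cyp19a1, the cyclin Ccnd1 and the angiogenic factor Vegfa rose by 0.60 to 1.00. Cyp19a1 read 7.11, 6.98 and 6.70 in 3MC ovaries and 6.16, 6.26 and 6.12 in DMSO ovaries. Its DMSO values all lay below the signal limit, so it was tested only because of its 3MC values. Many of the listed target genes also answer to other pathways, and 4 of the 22 (Cyp19a1, Fst, Irx3 and Amhr2) are granulosa marker genes as well. With median centring 4 of the 22 rose and 3 fell, while Ccnd1 differed by 0.51 and missed the threshold (adjusted p = 0.0633).

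**Figure D4:**
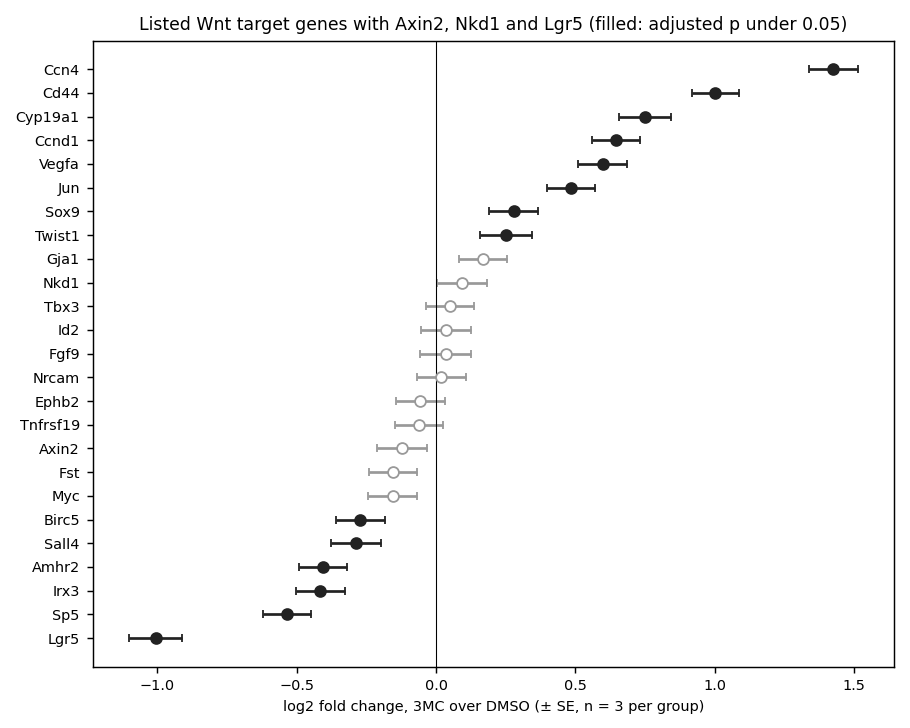
Log2 fold change, 3MC over DMSO (horizontal axis, bars of 1 SE, n = 3 per group), of the 22 tested target genes with Axin2, Nkd1 and Lgr5, filled where the adjusted p is under 0.05. Ccn4 lies farthest to the right and Lgr5 farthest to the left, while Axin2 and Nkd1 are open points between them.

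Markers of other cell types were tested on the same arrays, with 1 probe per gene. Of 20 tested leukocyte marker genes 19 fell, with a median difference of -1.37, and the mean log2 signal of the list was 7.55 to 7.58 in 3MC ovaries and 8.88 to 8.94 in DMSO ovaries. Among these genes, Csf1r and Tyrobp had 3MC means (6.15 and 6.26) below the signal limit and were tested only because of their DMSO values. Of 11 tested stromal marker genes 6 rose and 1 fell, with list means of 10.95 to 11.01 in 3MC ovaries and 10.62 to 10.67 in DMSO ovaries. Of 12 pregranulosa and granulosa marker genes 3 rose and 2 fell, and list means were 8.49 to 8.55 in 3MC ovaries and 8.43 to 8.50 in DMSO ovaries. Cyp19a1, tested only because of its 3MC values, is among the 3 that rose. Of 10 surface epithelium marker genes 3 rose and 3 fell, and their list means were 8.80 to 8.86 in 3MC ovaries and 8.75 to 8.79 in DMSO ovaries. Of 14 oocyte marker genes 5 rose and 5 fell, of 7 muscle and pericyte marker genes 2 rose and 2 fell, and of 6 endothelial marker genes 0 rose and 2 fell. The share that passed ran from 33.3% (endothelial) and 41.7% (pregranulosa and granulosa) to 95.0% (leukocyte), against 32.2% of all probes tested. With median centring 8.61% of all probes tested passed, and 18 leukocyte genes fell. Then 3 stromal genes rose and 1 fell, 1 oocyte gene rose and 3 fell, and 2 surface epithelium genes rose and 1 fell. Of the granulosa genes 1 rose and 2 fell, and 1 muscle and 1 endothelial gene fell. Of the defining markers, Ptprc, Itgam, Fcer1g, H2-Aa and Cd163 for leukocytes, Fshr, Kitl and Bex1 for granulosa cells, Msln and Lrrn4 for surface epithelium and Postn for stroma had no probe above the signal limit. Nor had Cnn1, Rgs5 and Tagln for muscle and pericytes, or Pecam1, Kdr, Tie1 and Vwf for endothelium. In whole ovaries, fewer cells of a type and less RNA per cell cannot be told apart, and the part of these shifts in the Wnt results was not tested.

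In the authors' deposited table, 19 of the 68 Wnt pathway rows had a p-value under 0.05, against 20.2% of all 25697 rows. The ratio was above 1 in 14 of them and below 1 in 5, against 9.9% and 10.3% of all rows. A ratio of 1.2-fold or more was given for 9 rows in the upward direction and 1 in the downward direction, against 5.21% and 5.3% of all rows, and 1 row reached 1.5-fold.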

How the data were processed

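The 6 samples were grouped by their labels as 3MC or DMSO, with no array left out. The authors deposited scanner intensity for 25697 probes without detection p-values, per the file headers, and a second table that was taken to be on the log2 scale, since its columns followed log2 scanner signal of their arrays (r of 0.997 or more). They also deposited sheets with a ratio of 3MC to DMSO and an unadjusted p-value per row. What model gave these p-values is not stated. Per the submitters' processing notes lumi was used, with no role given.

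Sheet rows carry gene symbols, and value tables carry probe identifiers. The value tables are in the order of the sheet's probe number, which was found after seeing the data. Rows linked in that order matched the probe's own ratio within 0.0001 (log2) in 25697 of 25697 cases, against 0.0623% when shifted by 1 row. Linking by ratio alone, as first planned, reached 9 of the 68 rows, all with the same probe.

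Scanner intensity was background corrected (normexp, offset 50), quantile normalized and log2 transformed in limma 3.58.1 (R 4.3.3). Probes with mean signal above the median probe's, 6.28, were fitted by group with lmFit and eBayes, with Benjamini-Hochberg adjustment over 12848 probes and a threshold of 0.05. The number of arrays limits the precision, and fits had 4 residual and 30.8 prior degrees of freedom. The script was tested on simulated data. The members and lists were chosen with earlier results of these data known. Every member is named or counted, and for other pathway lists the text names at most the 6 genes of largest change that passed. The alternatives were median centring, cyclic loess, the authors' log2 values, no background correction, other signal limits, a replicate block, a trended robust fit and omission of each array.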

Additional observations from a re-analysis of the deposited data

How the results depend on the processing

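The number of arrays and the absence of detection p-values limit what dim probes can show. The first Wnt5a probe, Fzd1, Wnt6, Ccn4, Sp5 and Lgr5 passed in the same direction in every setting in which they were tested. With median centring 3 Wnt pathway probes passed (2 higher and 1 lower), 3 of the 9 linked by ratio alone, and 1106 (8.61%) of all tested probes (343 higher and 763 lower, so that 31.0% of calls were higher, against 49.0% with quantile normalization). With probes above the 75th percentile of signal, 8 of 12 passed (7 higher and 1 lower), against 39.1% of all 6424 such probes. These were 2512 probes (1205 higher and 1307 lower), and fewer probes were tested there. With median centring and without 3MC replicate 1, added after seeing the data, 9 of 29 passed (3 higher and 6 lower), 4 of those linked by ratio alone, and 568 of all tested probes were higher and 5102 lower. So 44.1% of all tested probes passed there. The cause of the shifts with scaling was not tested. With 1 array left out, 12 to 14 Wnt pathway probes passed, 9 to 11 higher and 1 to 3 lower, against 26.0% to 28.1% of all tested probes. Cyclic loess, the authors' log2 values, no background correction, no signal limit and the trended fit left 13 to 15, against 16.1% of all probes without a signal limit and 31.8% to 32.5% in the others. Linking by address and ratio gave 15 called probes, against 9 by ratio alone, where 86.1% of all such probes passed, because mostly rows far from a ratio of 1 can be linked so. The authors' deposited table had 10 Wnt pathway rows at 1.2-fold or more and 1 at 1.5-fold, against 19 with a p-value under 0.05. A link by ratio together with the authors' p-value was not run, because neither a one-way nor a paired model gave their p-values back within 1% in more than 6.72% of rows.

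Same-numbered samples did not deviate together (r = -0.08, -0.10 and 0.08), so the numbers were not taken as pairs, and with the replicate number as a block 13 Wnt pathway probes passed (11 higher and 2 lower), against 31.0% of all tested probes. Some small differences changed sign, all but those of the second Wnt4 and Dkk3 probes and Tcf7l1 at probes that had not passed. With 1 array left out, Rspo2 lay between -0.052 and 0.073, Lrp6 between -0.13 and 0.020 and the first Ctnnb1 probe between -0.021 and 0.25. Rspo2 read -0.085 with median centring and -0.24 with median centring without 3MC replicate 1. In the same order of scalings, the Ctnnb1 probes read -0.0049 and -0.0038, then -0.18 and -0.089. With median centring without 3MC replicate 1, the second Wnt4 probe read -0.020, the second Dkk3 probe -0.049, Tcf7l1 -0.013 and Porcn -0.022.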
